A study of Mus musculus with 6 samples.

Results

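The BCL2 family sets whether a stressed cell opens its mitochondria and dies or stays alive, and several senolytic drugs, which kill senescent cells, are directed at its pro-survival proteins. The expression of 10 of its genes was compared between control and senescent fibroadipogenic progenitors (FAPs), the mesenchymal cells of skeletal muscle that can become fibroblasts or adipocytes. The genes were picked by symbol from the 16894 named genes of the deposited table, and all 10 were listed there and passed the filter on low values. They are the pro-survival genes Bcl2, Bcl2l1, Bcl2l2 and Mcl1, the pore-forming effectors Bax and Bak1, and the BH3-only genes Bbc3, Pmaip1, Bcl2l11 and Bid.

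Pro-survival proteins hold the effectors BAX and BAK inactive and also bind BH3-only proteins, so named because they share only the BH3 segment with the rest of the family. BH3-only proteins respond to stress such as DNA damage, occupy the groove of the pro-survival proteins or activate the effectors directly, and thereby let BAX and BAK perforate the outer mitochondrial membrane. Cytochrome c then leaves the mitochondria and starts the caspases through the apoptosome. Senescent cells of many kinds are known to resist apoptosis, and navitoclax, a drug that mimics a BH3 segment, binds the products of Bcl2, Bcl2l1 and Bcl2l2.

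RNA-seq libraries came from 3 control (non-senescent) and 3 senescent FAP samples, numbered 1 to 3 in each group, all from C57BL/6 mice of 3 to 6 months. Male and female mice were used for cell isolation in the study as a whole. The cells had been sorted magnetically from hindlimb muscle as CD45-, CD31-, α7-integrin- and SCA-1+ and grown in medium with bFGF. Senescent FAPs had received 20 μM of etoposide, a topoisomerase poison that breaks DNA, for 48 h, and then stayed in normal medium for 5 days. The treatment of the control FAPs, a vehicle included, and the time at which they were collected are not given in the sources used here. Neither do the labels say whether the replicates of a group came from separate animals or cultures, so the p values measure the spread between these samples, which may be technical. Each gene had received a value in CPM, its reads relative to a library size that edgeR had adjusted, and genes held 41412179 to 59912520 reads per library. A single read was worth 0.0167 to 0.0225 CPM. Differences were tested with limma on log2(CPM + 0.5) over 14776 genes, two-sided, with Benjamini-Hochberg adjustment, and a positive log2 fold change means more in senescent FAPs. In bulk RNA, fewer cells that express a gene and less of its RNA per cell cannot be told apart.

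The promoters were searched for the p53 element, the DNA sequence that p53, the transcription factor of the DNA damage response, binds. It consists of a pair of half-sites of 10 bases. RefSeq windows from 250 bases before to 50 bases after an annotated transcription start (GRCm38.p6) were used for 9 of the 10 genes, all but Pmaip1, 14 windows in all, and both strands were covered because the half-site reads the same on either. A full element of 20 bases was 2 half-sites without a spacer and at most 3 mismatches, none at the invariant C and G inside each half-site. Such an element lay in 1 of these windows, upstream of Bbc3, against 1.38% of 32851 windows of all genes. An exact half-site lay in 1 other window, upstream of Bax, against 8.36% of all windows. The stretches from position −250 to −11 are given because these are the only matches among the 14 windows, and capitals mark the full element, which begins at −97, and the half-site, which begins at −201. Bbc3 lies at chr7:16309333-16309572 on the plus strand, within an intron of a longer Bbc3 transcript, and Bax at chr7:45466909-45467148 on the minus strand, upstream of the gene.
Bbc3: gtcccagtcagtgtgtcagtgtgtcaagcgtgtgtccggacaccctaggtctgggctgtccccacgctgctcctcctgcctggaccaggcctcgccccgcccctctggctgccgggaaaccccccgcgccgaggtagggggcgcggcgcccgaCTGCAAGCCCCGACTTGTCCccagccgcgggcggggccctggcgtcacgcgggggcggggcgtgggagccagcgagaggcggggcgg
Bax: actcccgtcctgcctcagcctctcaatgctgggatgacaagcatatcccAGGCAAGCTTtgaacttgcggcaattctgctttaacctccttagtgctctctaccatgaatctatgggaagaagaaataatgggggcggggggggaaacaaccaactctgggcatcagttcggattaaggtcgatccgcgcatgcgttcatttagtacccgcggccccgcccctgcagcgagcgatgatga
A match to letters is no evidence of binding, and the search was chosen after the expression values were seen. Elements with a spacer between the half-sites, or outside the windows, were not searched for. Neither Bbc3 nor Bax passed the test between senescent and control FAPs, as described for each gene.

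Of the 10 genes, 4 rose and 1 fell in senescent FAPs at an adjusted p under 0.05 in limma, where 21.8% of all genes tested rose and 24.3% fell, 46.1% in either direction. Pmaip1 rose by far the most, followed by Bcl2l1, Bid and Bcl2l11, whereas Bak1 fell. Pmaip1 was also the single gene of the 10 past an unadjusted p of 0.01 and a log2 fold change beyond 1, a combination met by 10.8% of all genes (6.93% upwards). All 3 senescent libraries lay above all 3 control libraries in 4 genes, Bcl2l1, Bcl2l2, Pmaip1 and Bcl2l11, and below them in 1, Bak1, against 26.5% and 30.9% of all genes, 57.4% in either direction. The number of genes that rose was 2, Bcl2l1 and Pmaip1, without control replicate 3 and also without senescent replicate 2. It was 7 when the reads were divided by library totals alone, which added Bcl2l2, Mcl1 and Bax.

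**Figure D1:**
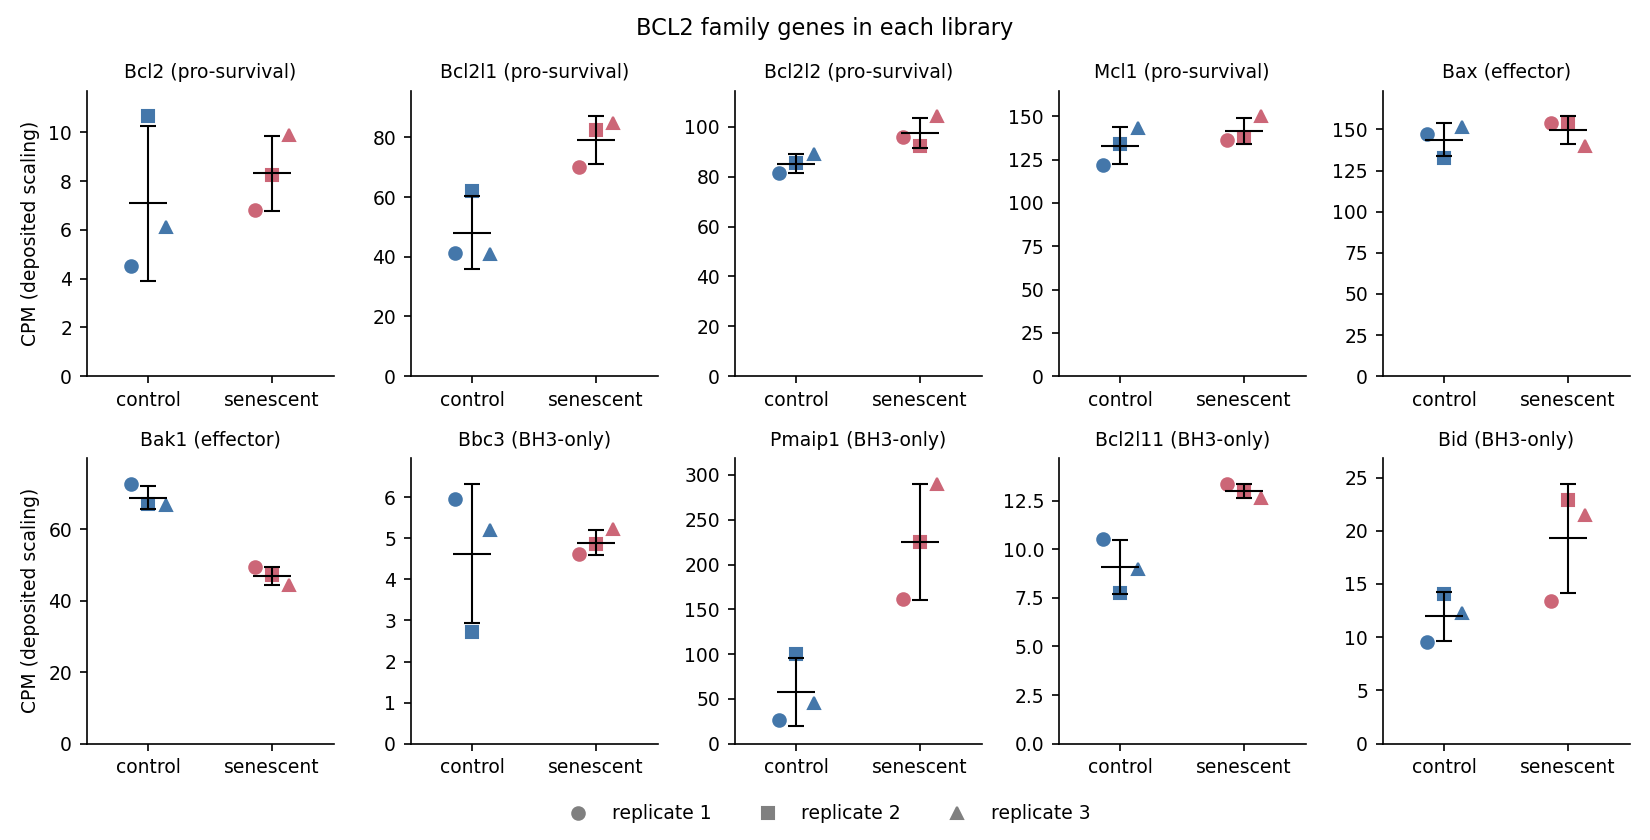
CPM with the deposited scaling (y axis, from 0, its own range in each panel) of the 10 BCL2 family genes in control and senescent FAPs. Points are single libraries, shaped by replicate number, and the horizontal line and bars are the mean ± SD (n = 3). Senescent libraries lie above all control libraries for Bcl2l1, Bcl2l2, Pmaip1 and Bcl2l11 and below them for Bak1.

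Among the pro-survival genes, 1 of 4 rose, 25% against 21.8% of all genes, none fell, and the median log2 fold change was 0.24, against −0.033 over all genes tested. Bcl2l1 (chr2:152780668-152831728, minus strand) encodes BCL-XL, a target of navitoclax. It measured 41.4, 62.2 and 40.8 CPM in the control libraries and 70.0, 82.5 and 84.7 CPM in the senescent libraries, each in the order of their replicate numbers, as for all genes. Every senescent library was above every control library, and control replicate 2 was the control nearest to them. The mean went from 48.1 ± 12.2 to 79.1 ± 7.94 CPM (SD, n = 3), a 1.64-fold rise (log2 fold change 0.73, SE 0.17, limma adjusted p = 0.00979). With 1 library left out the log2 fold change ranged from 0.63 to 0.93, highest without control replicate 2, with a limma adjusted p of at most 0.0444.

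Bcl2l2 (chr14:54883377-54888234, plus strand), which encodes BCL-W, had 81.4, 85.5 and 88.9 CPM in the control libraries and 96.1, 92.4 and 104 CPM in the senescent libraries. The groups did not overlap, but the difference was small and did not pass the test (log2 fold change 0.19, 95% interval 0.017 to 0.37, limma adjusted p = 0.0703). It passed when whole reads were tested by quasi-likelihood in edgeR (log2 fold change 0.22, adjusted p = 0.0489) and with DESeq2 (0.23, adjusted p = 0.0335). A readthrough transcript annotated as Gm20521 covers 13.3% of the exons of Bcl2l2 on the same strand, and that gene had a log2 fold change of −0.24 (limma adjusted p = 0.0377), so the split of reads between them is uncertain.

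Mcl1 (chr3:95658788-95663176, plus strand), whose short-lived product holds BAK and NOXA, had 122, 134 and 143 CPM in control FAPs and 137, 137 and 149.9 CPM in senescent FAPs. The ranges overlapped, and the log2 fold change was 0.090 (95% interval −0.10 to 0.28, limma adjusted p = 0.406). Bcl2 (chr1:106538178-106714274, minus strand), the family's founding survival gene, was the lowest of the 10 per length, with 4.53, 10.6 and 6.10 CPM in control FAPs and 6.83, 8.25 and 9.90 CPM in senescent FAPs, from 203 to 560 reads per library. Control replicate 2 held the highest value of all, above each senescent library. The log2 fold change was 0.28 (SE 0.29, limma adjusted p = 0.448), and without control replicate 2 it was 0.60 and passed the test (limma adjusted p = 0.0344). An antisense gene overlaps 6.09% of the exons of Bcl2. How the counting treated strand is not stated, so reads of antisense partners may be mixed in this and the following genes.

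The effectors went apart. Bak1 (chr17:27019810-27029009, minus strand), which encodes the effector that sits in the mitochondrial membrane of healthy cells, had 72.7, 67.1 and 66.9 CPM in control FAPs and 49.5, 47.1 and 44.4 CPM in senescent FAPs. The 3 libraries of each group lay close together and the groups were well apart. Its mean fell from 68.9 ± 3.30 to 47.0 ± 2.56 CPM (SD, n = 3), with a log2 fold change of −0.55 (SE 0.076, limma adjusted p = 0.00132). The difference was nearly the same in each pair of equal replicate number, at −0.55, −0.50 and −0.59 on the log2 scale. The antisense gene Ggnbp1 overlaps 25.5% of the exons of Bak1 and had 12.6 ± 1.20 CPM in control and 10.7 ± 1.05 CPM in senescent FAPs.

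Bax (chr7:45461697-45466898, minus strand), the effector that moves from the cytosol to mitochondria, had 147, 133 and 151 CPM in control FAPs and 154, 154 and 139.8 CPM in senescent FAPs. The groups overlapped, with senescent replicate 3 below 2 of the controls. Its log2 fold change was 0.057 (95% interval −0.13 to 0.24, limma adjusted p = 0.593). A gene annotated as Gm45808 covers 12.2% of the exons of Bax on the same strand. It was not analysed here, so the split of reads between them is uncertain.

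Of the BH3-only genes, 3 of 4 rose, where 21.8% of all genes did, none fell, and the median log2 fold change was 0.57. The call of Bid among the 3 was lost without any 1 of 4 libraries. Pmaip1 encodes NOXA, which binds MCL-1. It had 26.9, 99.7 and 45.4 CPM in control FAPs and 161, 225 and 290.0 CPM in senescent FAPs. The groups did not overlap although each varied widely, with a coefficient of variation of 66.0% in control and 28.6% in senescent FAPs. The mean rose 3.93-fold, from 57.3 ± 37.9 to 225 ± 64.5 CPM (SD, n = 3), with a log2 fold change of 2.13 (SE 0.44, limma adjusted p = 0.00626). That change was larger than in 99.0% of all genes tested. Control replicate 2 was the control nearest to the senescent libraries. With 1 library left out the log2 fold change ranged from 1.69 to 2.63, highest without control replicate 2, with a limma adjusted p of at most 0.0322. In pairs of equal replicate number the log2 differences were 2.56, 1.17 and 2.66.

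Bcl2l11 (chr2:128126038-128162547, plus strand) encodes BIM, which binds all the pro-survival proteins and activates the effectors. It had 10.5, 7.76 and 8.99 CPM in control FAPs and 13.4, 13.0 and 12.6 CPM in senescent FAPs. The senescent libraries differed little among themselves and lay above all controls. The log2 fold change was 0.50 (SE 0.13, limma adjusted p = 0.0178). The call was lost without control replicate 3 (0.50, limma adjusted p = 0.0529) and without senescent replicate 2 (0.50, limma adjusted p = 0.0619).

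Bid (chr6:120891930-120916853, minus strand) encodes a protein that caspase 8 cleaves and that links death receptors to mitochondria. It had 9.55, 14.1 and 12.3 CPM in control FAPs and 13.4, 22.9 and 21.5 CPM in senescent FAPs. The groups overlapped, since senescent replicate 1 was below control replicate 2. The log2 fold change was 0.65 (SE 0.22, limma adjusted p = 0.0460), and with the replicate number as a block the adjusted p was 0.00339. The call was lost without any 1 of 4 libraries, namely control replicate 1 (0.50, limma adjusted p = 0.123), control replicate 3 (0.67, 0.0913), senescent replicate 2 (0.51, 0.158) and senescent replicate 3 (0.55, 0.149). The last exons of Bid overlap those of Bcl2l13 on the other strand over 628 bases, 17.7% of the exons of Bid.

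Bbc3 (chr7:16308393-16318205, plus strand), which encodes PUMA, a BH3-only protein that binds all the pro-survival proteins, had 5.96, 2.72 and 5.21 CPM in control FAPs and 4.61, 4.85 and 5.22 CPM in senescent FAPs. All senescent values lay inside the control range, and control replicate 2 was the lowest of all 6 libraries. The log2 fold change was 0.13 (95% interval −0.46 to 0.73, limma adjusted p = 0.697), from 143 to 290 reads per library, and a change of the size seen in Bcl2l11 was within its interval. Without control replicate 2 it was −0.17.

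**Figure D2:**
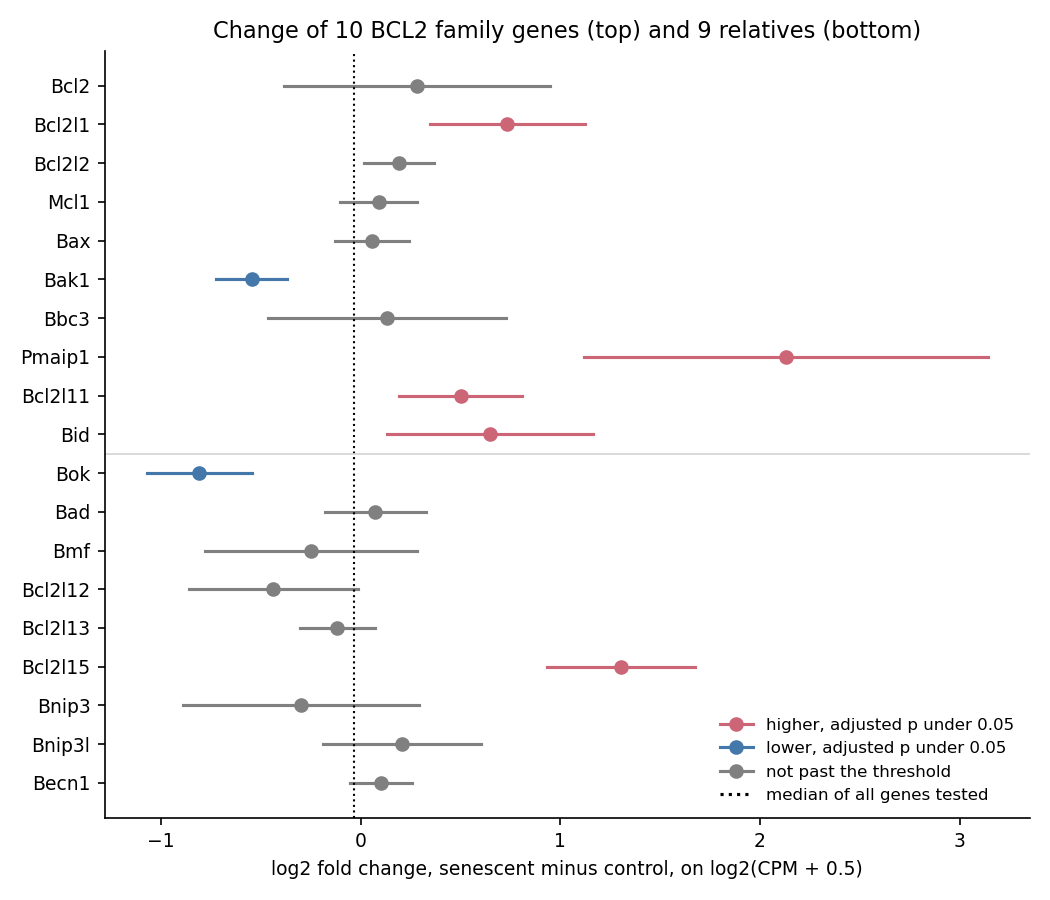
Log2 fold change between senescent and control FAPs (x axis, on log2(CPM + 0.5)) for the 10 BCL2 family genes above the line and 9 further relatives below it. Points are limma estimates from 3 against 3 libraries, bars are 95% intervals, colour gives the call at an adjusted p under 0.05, and the dotted line is the median of all genes tested (−0.033). Pmaip1 has the largest change, at 2.13, and Bok and Bak1 are the genes that fell, at −0.81 and −0.55.

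Set against each other as classes, the 4 pro-survival genes had a median log2 fold change of 0.24 and the 6 pro-apoptotic genes, effectors and BH3-only genes together, one of 0.32. The order of these medians rested on control replicate 2, since they were 0.40 and 0.20 without it. Log2 fold changes ran from −0.55 in Bak1 to 2.13 in Pmaip1 in the pro-apoptotic class and from 0.090 in Mcl1 to 0.73 in Bcl2l1 in the pro-survival class.

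Levels between genes were compared as CPM per kilobase of exon, with exon lengths from GENCODE M21. These lengths are the union of all annotated exons of a gene, not the length of the expressed transcript. The order of genes and the sums and shares of the classes depend on them. In control FAPs Bax was highest at 91.2 ± 6.23 CPM per kilobase (SD, n = 3), followed by Mcl1 at 38.9 ± 3.13, Bak1 at 28.6 ± 1.37, Pmaip1 at 20.99 ± 13.9 and Bcl2l2 at 19.1 ± 0.846. Bcl2l1 came next at 10.5 ± 2.65, and Bid, Bbc3, Bcl2l11 and Bcl2 were between 3.37 and 0.775. The ranges of Bak1 and Pmaip1, of Pmaip1 and Bcl2l2, and of each neighbouring pair from Bid down to Bcl2 overlapped, so those neighbours were not ordered beyond their spread. In senescent FAPs Bax (94.8 ± 5.33) and Pmaip1 (82.4 ± 23.6) led with overlapping ranges. Mcl1 followed at 41.3 ± 2.18, then Bcl2l2 at 21.9 ± 1.34 and Bak1 at 19.5 ± 1.06, whose range overlapped that of Bcl2l1 at 17.2 ± 1.73. By their means alone, Pmaip1 went from the fourth to the second place and Bak1 from the third to the fifth. These places are not settled where the ranges overlapped. Bid, Bbc3, Bcl2l11 and Bcl2 stayed lowest, at 5.43, 2.30, 1.62 and 0.909 CPM per kilobase.

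Summed per class on the same scale, pro-survival transcripts went from 69.3 ± 5.17 to 81.4 ± 4.81 CPM per kilobase, effectors from 120 ± 6.75 to 114 ± 6.28, and BH3-only transcripts from 27.7 ± 13.5 to 91.8 ± 24.8 (mean ± SD, n = 3). The BH3-only class held 8.18% to 18.7% of the sum of the 10 genes in control FAPs, below the 25.4% to 37.5% that it held in senescent FAPs. Most of that sum was Pmaip1, with 59.1%, 85.5% and 70.3% of BH3-only transcripts in the control libraries and 88.5%, 88.8% and 91.3% in the senescent libraries.

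**Figure D3:**
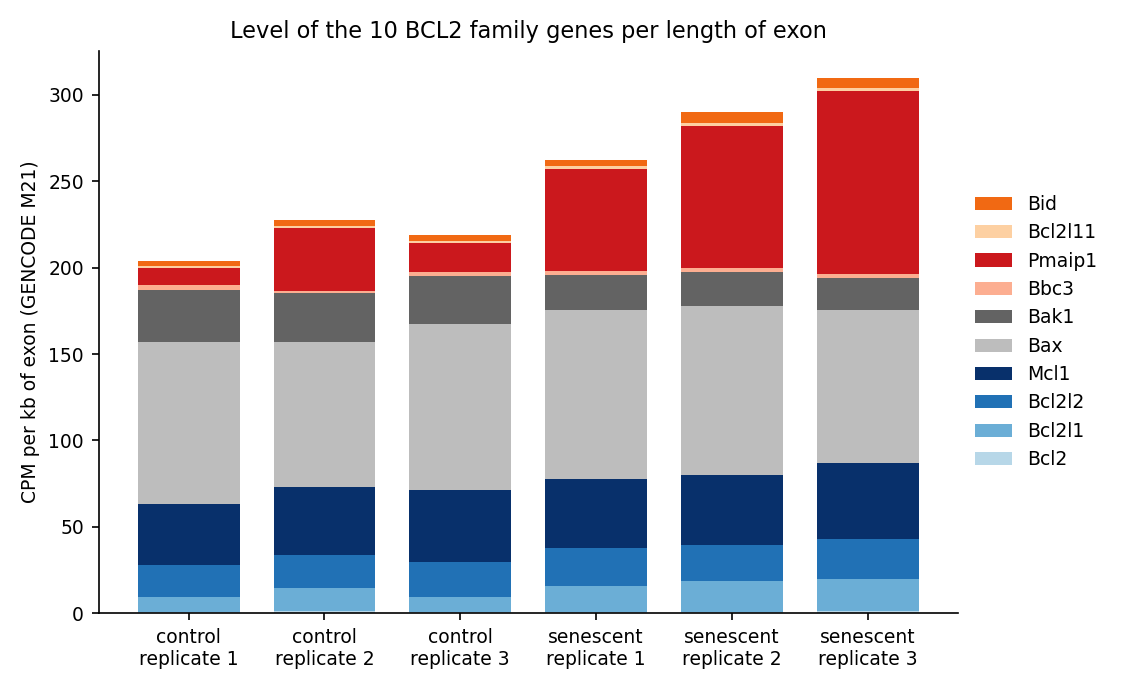
Stacked level of the 10 BCL2 family genes in each library, in CPM per kilobase of exon (y axis, from 0), with blue for pro-survival genes, grey for effectors and red to orange for BH3-only genes. The Pmaip1 segment is taller in every senescent library than in every control library, while the light grey Bax segment stays between 84.2 and 98.0 CPM per kilobase in all 6.

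Ratios between the CPM of genes in a library do not depend on how libraries were scaled. They are not corrected for length, so only their difference between the groups is described. Those described were chosen after the values were seen and are given without a test. Mcl1 over Pmaip1, the transcripts of NOXA's partner and of NOXA, was 4.52, 1.34 and 3.15 in control FAPs and 0.848, 0.612 and 0.517 in senescent FAPs. Each senescent ratio was below each control ratio, and the lowest control ratio was that of replicate 2. Bcl2l1 over Bak1, a pro-survival gene over an effector that its product can hold, was 0.569, 0.927 and 0.610 in control and 1.41, 1.75 and 1.91 in senescent FAPs, again without overlap. Bax over Bak1 was 2.03, 1.98 and 2.26 in control and 3.12, 3.28 and 3.15 in senescent FAPs, with no overlap between the groups. Bcl2l1 over Mcl1 also separated the groups, at 0.340, 0.464 and 0.285 against 0.513, 0.601 and 0.565. In contrast, Bcl2l1 over Bax, at 0.281, 0.469 and 0.270 in control and 0.454, 0.534 and 0.606 in senescent FAPs, overlapped through control replicate 2. Bcl2 over Bax, the ratio often quoted in studies of apoptosis, overlapped widely, from 0.0307 to 0.0803 in the control and from 0.0443 to 0.0708 in the senescent libraries.

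**Figure D4:**
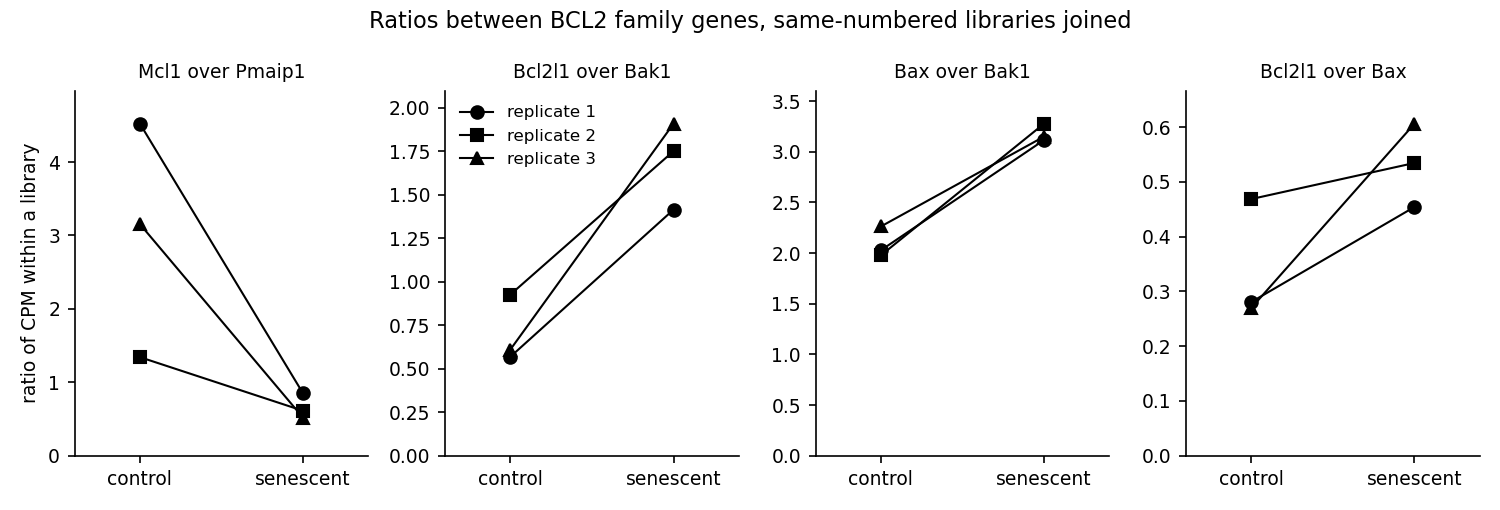
Ratio of the CPM of 2 genes in the same library (y axis, from 0, its own range in each panel) in control and senescent FAPs, with lines joining libraries of equal replicate number. Mcl1 over Pmaip1 is lower in all 3 senescent libraries than in any control library, Bcl2l1 over Bak1 and Bax over Bak1 are higher, and Bcl2l1 over Bax overlaps.

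Of 17 further relatives, 10 were listed, 9 were tested and 7 (Bik, Hrk, Bcl2l10 and 4 Bcl2a1 genes) were not analysed here. Among the 9, 1 rose and 1 fell, 22.2% against 46.1% of all genes in either direction, and the median log2 fold change was −0.12. Bok, an effector-like gene, had 44.6, 47.2 and 39.1 CPM in control FAPs and 27.9, 22.3 and 24.0 CPM in senescent FAPs and fell by 0.81 on the log2 scale (SE 0.11, limma adjusted p = 0.00131). Bcl2l15 rose (log2 fold change 1.30, limma adjusted p = 7.9e-04) from 0.112, 0.171 and 0.108 to 0.854, 1.20 and 1.13 CPM, on 5 to 72 reads per library, a range in which the value depends on the pseudocount. It was 2.33 with a pseudocount of 0.1, 0.86 with 1, 3.03 in edgeR and 3.06 in DESeq2, and the means differed 8.15-fold. Bcl2l15 passed the filter of 0.5 CPM through the senescent libraries alone, so the filter fixed its direction. With a filter of 2 CPM it was not tested, and 0 of these relatives rose. The BH3-only genes Bad (0.073) and Bmf (−0.25), the mitophagy receptors Bnip3 (−0.30) and Bnip3l (0.21), the autophagy gene Becn1 (0.10), Bcl2l12 (−0.44) and Bcl2l13 (−0.12) did not pass the test. Without control replicate 2, Bcl2l12 (−0.54, limma adjusted p = 0.0414) and Bnip3 (−0.57, limma adjusted p = 0.0348) passed it, which made 3 lower genes. Becn1 passed with division by library totals alone (0.31, limma adjusted p = 0.00746) and with quantile normalization (0.21, limma adjusted p = 0.0329). Bcl2l14 was under the filter, at 6 to 19 reads.

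Downstream of the family, 25 genes of the apoptosome, caspases and their inhibitors were tested, of which 1 rose and 12 fell, with a median log2 fold change of −0.23, where 21.8% of all genes rose and 24.3% fell. The smallest p values belonged to Birc5, the mitotic gene for survivin (−2.86, limma adjusted p = 5.3e-04), Aifm1, a mitochondrial flavoprotein (−0.50, limma adjusted p = 0.00177), and Vdac3, a channel of the outer mitochondrial membrane (−0.43, limma adjusted p = 0.00316). The number that fell was 7 without any 1 of the senescent libraries and 6, with 3 that rose, with division by library totals alone. The gene that rose was Cflar, which encodes the caspase 8 inhibitor c-FLIP and was chosen for naming after its value was seen (0.73, limma adjusted p = 0.0327). Its call was lost without control replicate 1 or 3 or senescent replicate 2 or 3.

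Upstream, 18 regulators of the family were tested, of which 6 rose and 2 fell, with a median of 0.21. Together these were 44.4% of the list, against 46.1% of all genes called in either direction. Mdm2, whose product degrades p53, went from 109, 191 and 156 to 433, 470 and 526 CPM (log2 fold change 1.68, limma adjusted p = 6.28e-04). Dynll1, a dynein light chain that can bind BIM, fell (−0.51, limma adjusted p = 0.00297), and so did Atf4, a transcription factor of the integrated stress response (−0.77, limma adjusted p = 0.00368). The number of regulators that rose was 3 without senescent replicate 2 or 3.

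Among 28 genes for senolytic targets outside the family, 5 rose and 11 fell, with a median of −0.24, beside 21.8% and 24.3% of all genes. Kit, 1 of the 11, had 0.670 to 1.08 CPM in control and 0.199 to 0.338 CPM in senescent FAPs. Named after its values were seen, it passed the filter through the control libraries alone, so the filter fixed its direction. The smallest p values included those of Cdkn1a, the gene for the cell cycle inhibitor p21 (1.85, limma adjusted p = 1.01e-04), and Efnb1, an ephrin ligand (−0.999, limma adjusted p = 0.00389). The number that fell was 4 with division by library totals alone and 5 with quantile normalization.

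The labels and the cell sort were set against known genes. Cdkn1a rose, from 259 to 336 CPM in control to 1017 to 1060 CPM in senescent FAPs, and the proliferation genes Mki67 (−3.55), Top2a (−3.50) and Lmnb1 (−2.16), a lamin lost in senescence, fell (limma adjusted p = 4.45e-04, 2.52e-04 and 1.13e-04), whereas Cdkn2a (0.13) and Cdkn2b (0.30) did not pass the test. Cdkn2a spread widely, over 56.5 to 129 CPM in control and 63.2 to 104 CPM in senescent FAPs. The 95% interval of its log2 fold change was −0.60 to 0.85. With the replicate number as a block Cdkn2b rose (limma adjusted p = 0.0236). Control replicate 2 stood apart from the other controls, with 247 CPM of Mki67 against 100.5 and 125. Of the 8 FAP markers, all listed, 4 rose and 1 fell (21.8% and 24.3% of all genes). Col1a1, the highest, fell from 9978 to 21130 CPM in control to 2353 to 4073 CPM in senescent FAPs (−2.29, limma adjusted p = 0.00150). The defining marker Pdgfra had 126 to 238 CPM in control and 182 to 254 in senescent FAPs, and Ly6a rose from 220.4 to 456 CPM to 538 to 678 CPM, as did Dcn, Cd34 and Lum, named after their values were seen. Thy1, likewise, had 489 and 615 CPM in the replicate 1 libraries of both groups and 41.3 to 73.6 CPM in the other 4. Leukocyte markers, 6 of 10 listed, summed to 10.1 to 12.3 CPM in control and 22.9 to 28.6 CPM in senescent FAPs, and 3 of the 4 tested rose, beside 21.8% of all genes. Itgam, 1 of these 3, had 0 to 0.0670 CPM in control and 0.516 to 0.837 CPM in senescent FAPs. Named after its values were seen, it passed the filter through the senescent libraries alone, so the filter fixed its direction. Csf1r was highest on average (6.24 to 7.36 and 7.16 to 8.10 CPM), and Ptprc was not analysed here. Cd53, named after its values were seen, had 0.960, 3.92 and 1.08 CPM in control and 8.36, 12.0 and 13.7 CPM in senescent FAPs (2.42, limma adjusted p = 0.00311), above Csf1r in the latter. Endothelial markers, 5 of 7 listed, summed to 19.2 to 39.5 and 23.8 to 31.2 CPM, led by Tek, and 2 rose, Pecam1 (0.467 to 1.03 and 1.59 to 1.87 CPM) and Vwf (0.64), while Kdr fell (−0.74, limma adjusted p = 0.00989), the last 2 named after their values were seen. Satellite and muscle cell markers, 4 of 8 listed, summed to 35.5 to 54.2 and 36.2 to 39.3 CPM, with Pax7 not analysed here. Of these, Acta1, the highest, fell from 17.1 to 34.7 CPM to 8.01 to 11.9 CPM (−1.49, limma adjusted p = 0.00424), and Itga7 rose from 9.17 to 12.3 CPM to 15.7 to 23.6 CPM (0.83, limma adjusted p = 0.00771). The part of these markers in the values of the BCL2 family was not tested.

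**Figure D5:**
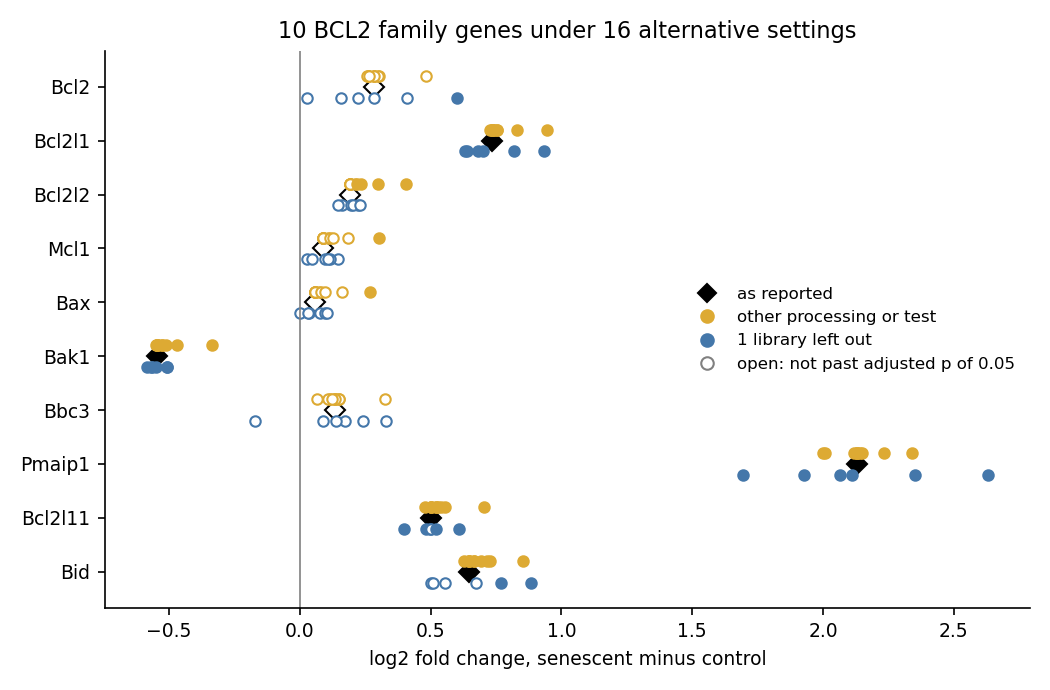
Log2 fold change between senescent and control FAPs (x axis) of the 10 BCL2 family genes as reported (black diamonds), with 10 other ways of processing or testing (yellow) and with 1 of the 6 libraries left out (blue). Filled symbols pass an adjusted p of 0.05 and open ones do not. Bcl2l1, Pmaip1 and Bak1 stay filled under all 16 alternatives, Bcl2l11 and Bid lose the call when some libraries are left out, and Bbc3 and Bax cross 0 without control replicate 2.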

How the data were processed

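RNA of 3 control and 3 senescent FAP samples had been sequenced from stranded mRNA libraries. The authors deposited 1 table of a normalized signal, CPM scaled in edgeR (edgeR 3.10, R 3.6.0 and build mm10 in the submitters' processing notes), with replicates not pooled. The aligner, the counting tool and the gene filter are not given in the sources used here. Every value was a whole multiple of 1 read within 0.01 reads, which let whole reads be recovered for 100% of them. Library factors of 0.917 to 0.940 in control and 1.07 to 1.09 in senescent libraries are part of the deposited CPM. Of 16895 lines, 1 names no gene and was dropped (0.0041% to 0.0070% of reads), and 22 carry names that read as dates. Libraries of a group differed far beyond sampling noise (chi-square per gene 15.1 to 162), so none was the same library deposited again.

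Groups and replicate numbers came from the sample labels. limma (3.58.1, R 4.3.3) was fitted with a variance trend on log2(CPM + 0.5) of genes that reached 0.5 CPM in 3 or more libraries. CPM had been foreseen, and the same test was kept for the normalized signal. edgeR's quasi-likelihood test (4.0.16) on the recovered reads called 3261 genes higher and 3307 lower, against 3218 and 3592 with limma. DESeq2 (1.42.0) and the other alternatives are in the closing section. Scripts were tested on simulated data. Deviations from the group means correlated by 0.54, 0.31 and 0.21 between libraries of equal replicate number and by −0.36 to 0.15 between the others (14776 genes), so the numbers were taken to pair the libraries, from the data and not from a stated pairing. The limma test as reported did not use this pairing, and a block for the replicate number entered only an alternative fit.

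The genes and lists were chosen with earlier results of these data known. Named are all 10 genes, every further relative measured, in each wider list the 3 of smallest p, all genes of the treatment check, and for each cell type its highest and its defining markers. The counts include a gene that the text leaves out. Gene positions and exon lengths are from GENCODE M21 (GRCm38), promoters from RefSeq (GRCm38.p6).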

Additional observations from a re-analysis of the deposited data

How the results depend on the processing

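Each of the 10 genes was refitted under 16 alternatives. Of the 160 values, 145 kept direction and call, 7 passed the test only in the alternative, 6 lost the call and 2 changed sign, and Bcl2l1, Pmaip1 and Bak1 kept their calls throughout. With the replicate number as a block the same 4 genes rose and Bak1 fell, and no call among the 10 changed, while Cdkn2b (0.30) passed the test. Division by library totals alone raised the median of all genes by 0.199 on the log2 scale, to 0.17, and gave 4992 higher and 1929 lower genes (72.1% higher among the calls, 47.3% as reported). It called 7 of the 10 genes higher, adding Bcl2l2 (0.40), Mcl1 (0.30) and Bax (0.27), and turned Bcl2l13 to 0.092. Bcl2l2 also passed with quantile normalization (0.30), edgeR's quasi-likelihood test (0.22) and DESeq2 (0.23). With 1 library left out, genes higher ranged from 2130, without senescent replicate 2, to 3405, and those of the 10 from 2 to 5. Over the same settings log2 fold changes ranged from 0.026 to 0.60 for Bcl2, 0.40 to 0.61 for Bcl2l11, 0.50 to 0.88 for Bid, −0.000115 to 0.10 for Bax and −0.17 to 0.33 for Bbc3. They ranged from −0.019 to 0.14 for Bad and from −0.13 to 0.46 for Cdkn2a, lowest in both without control replicate 2. Bbc3 and Bcl2 have the widest intervals of the 5 that did not pass, with standard errors of 0.26 and 0.29, and 0.15 and 0.19 without control replicate 2. No alternative tests protein or its binding.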
